A study of Mus musculus with 8 samples.

Results

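Mitochondrial ribosomal protein genes are the nuclear genes with symbols beginning Mrpl or Mrps and a number, which encode the proteins of the large and the small subunit of the ribosome inside mitochondria. Their transcripts were examined in soleus muscle, which lies in the calf and serves posture, from 4 control and 4 Dnm2 wt/K562E animals, which were male, 2 months old and of C57BL/6 background. Controls were Dnm2 +/+. The mutant mice were heterozygous (Dnm2 +/K562E) for a knock-in that replaces a lysine of dynamin 2, a GTPase that cuts vesicles from their parent membrane, with glutamate in the endogenous gene. Their targeted allele kept a LoxP site in an intron of Dnm2, and the control mice were age-matched or littermate animals. Among 22880 genes with counts, 77 protein-coding genes matched the symbols, 48 for the large and 29 for the small subunit. One further gene of this kind, Mrpl33, was not analysed here. All 77 genes passed the filter on low counts that left 14001 genes for testing, and they lay on 17 chromosomes, with 11 genes on chromosome 11 and 8 on chromosome 17.

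Mitochondria keep a small genome of their own, which encodes core subunits of the respiratory chain and of ATP synthase, the ribosomal RNAs and transfer RNAs. A dedicated ribosome, the mitoribosome, translates those messages at the inner membrane. Its RNAs come from the mitochondrial genome, whereas each of its proteins is encoded in the nucleus, made in the cytosol and imported. In the course of evolution it lost RNA and gained proteins, so that part of its proteins have a counterpart in bacteria and the others are found in mitochondria only. The soleus is rich in mitochondria, since its fibres work for long periods on oxidative metabolism.

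RNA was sequenced with a total of 33407430 to 48832814 counted reads per mouse, and the 77 genes took 0.305% to 0.319% of these reads in controls against 0.274% to 0.285% in mutants. Levels are given as normalised CPM, the count of a gene in a library brought to a standard size, for which the library total of each mouse was multiplied by a TMM factor, a correction by edgeR that aligns the bulk of genes between libraries. The factors were 0.91 to 0.96 in controls and 1.04 to 1.10 in mutants, and thus separated the genotypes. Differences are log2 fold changes of Dnm2 wt/K562E over control with their standard error (SE), and genes with an adjusted p under 0.05 were called, by the quasi-likelihood test of edgeR, with Benjamini-Hochberg adjustment over all 14001 genes. The mutated gene itself, Dnm2, was measured at 66.3 ± 4.74 CPM in controls and 73.4 ± 2.43 CPM in mutants (SD, n = 4), with a log2 fold change of 0.15 and an adjusted p of 0.091. Scaled by library size alone, without the TMM factors, Dnm2 was higher (0.36, adjusted p = 0.0027 by the same test). A point mutation leaves this level free, so that it is no check of the genotype labels. The paper reports from allele-specific reads that the mutation was absent in controls, and that mutants had similar amounts of both Dnm2 transcripts. That comparison was not repeated here. Slow fibre markers were abundant in every mouse, with slow myosin heavy chain Myh7 at 6012 ± 263 CPM in controls and 4192 ± 391 CPM in mutants.

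Transcripts of the mitoribosome were mostly lower in Dnm2 wt/K562E soleus. Of the 77 genes, 57 were lower, 1 was higher and 19 were not called. Among all genes tested, 21.7% were lower and 22.2% were higher. The median log2 fold change of the 77 genes was −0.35, beside 0.01 over all tested genes, and 73 of the 77 values were below 0. The changes were small to moderate, running from −0.91 for Mrpl14 to 0.37 for Mrps12. With the additional limit of a log2 fold change of −0.58 or less, 14 of the 77 genes were called lower, beside 7.85% of all genes. All 4 control mice lay above all 4 mutant mice for 55 genes, against 20.5% of all genes, and the reverse was true of 1 gene, against 20.6% (41.2% of all genes did not overlap in either direction). In a bulk sample, fewer muscle fibres among the sampled cells and less RNA per fibre cannot be told apart.

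**Figure D1:**
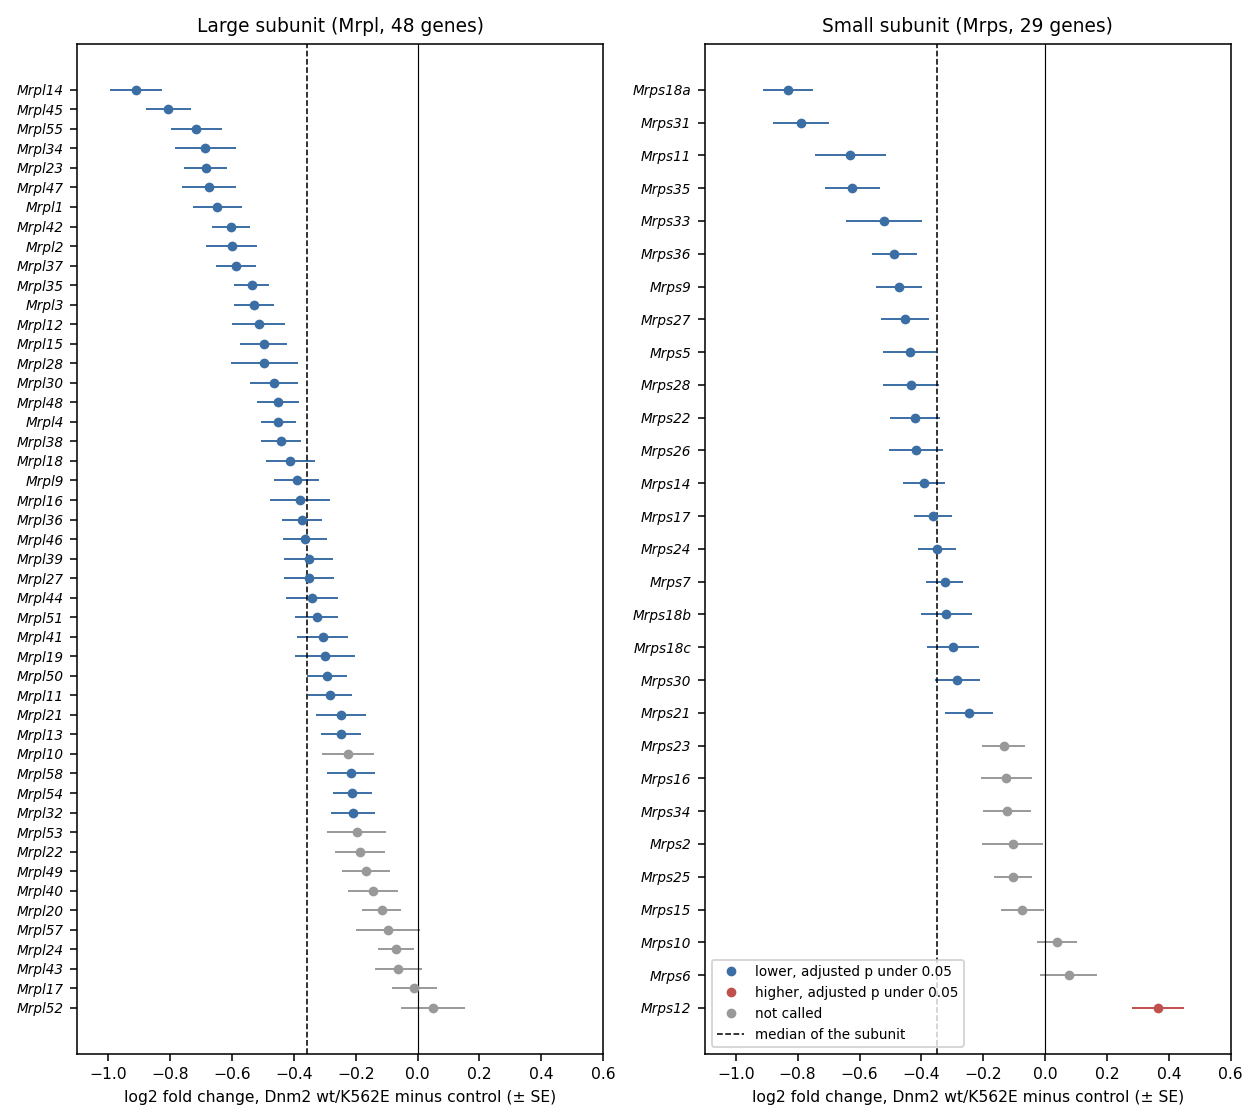
Log2 fold change of Dnm2 wt/K562E over control soleus for each of the 48 large subunit genes (left) and the 29 small subunit genes (right), with the standard error as a bar, ordered by value. Blue points were called lower and the red point (Mrps12) was called higher. Both dashed lines, the subunit medians, lie near −0.35, and 11 large and 8 small subunit genes in grey were not called.

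The size of these changes depended on the scaling. Without the TMM factors, by library size alone, the log2 fold changes of all genes moved up together, to a median of 0.22, and 35 of the 77 genes were then lower and 5 higher. The 5 were Mrps12 and, with log2 fold changes of 0.20 to 0.29, Mrpl17, Mrps10, Mrpl52 and Mrps6. The share of all genes called with this scaling was not counted. Calls by library size alone, here and below, thus have no background share beside them. Relative to the median of all genes, the large subunit stood at −0.37 with either scaling and the small subunit at −0.36 with either. A shift common to all genes leaves such differences unchanged, so that this is no test of the scaling.

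Genes of both subunits were mostly lower, with close medians. In the large subunit, 37 of 48 genes were lower, none was higher and 11 were not called, the median being −0.36 (log2) with quartiles of −0.52 and −0.21. The small subunit had 20 of 29 genes lower, 1 higher and 8 not called, and its median was −0.35. Thus 77.1% of large and 69.0% of small subunit genes were lower. Symbols do not always give the place of the protein, since Mrps18a and Mrps30 encode proteins of the large subunit and Mrps36 encodes a protein now known from the 2-oxoglutarate dehydrogenase complex. With these genes placed accordingly, the medians were −0.36 for 50 large and −0.34 for 26 small subunit genes.

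The genes of each subunit were also summed within each mouse. Large subunit genes summed to 2328, 2387, 2396 and 2198 CPM in controls 1 to 4, against 1697, 1662, 1732 and 1866 CPM in mutants 1 to 4. Every mutant mouse was below every control mouse, the mutant mean being 0.747 of the control mean (1739 ± 89.1 against 2327 ± 91.4 CPM, SD, n = 4). Small subunit genes summed to 1039, 1074, 1075 and 981 CPM in controls and to 803, 817, 844 and 884 CPM in mutants, a ratio of means of 0.803. Mutant mouse 4 was the closest to the controls in both sums. The ratio of the large to the small sum does not depend on library scaling, and it was 2.24, 2.22, 2.23 and 2.24 in controls and 2.11, 2.03, 2.05 and 2.11 in mutants. It was thus lower in all 4 mutant mice, by more than the spread within either genotype (2.23 ± 0.009 against 2.08 ± 0.041). Abundant genes weigh most in such sums, and Mrpl42 alone made up 10.4% of the large sum in controls and 9.14% in mutants. Without Mrpl42, a choice made after the data were seen, the ratio was 2.00 ± 0.009 in controls and 1.89 ± 0.040 in mutants, again without overlap.

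**Figure D2:**
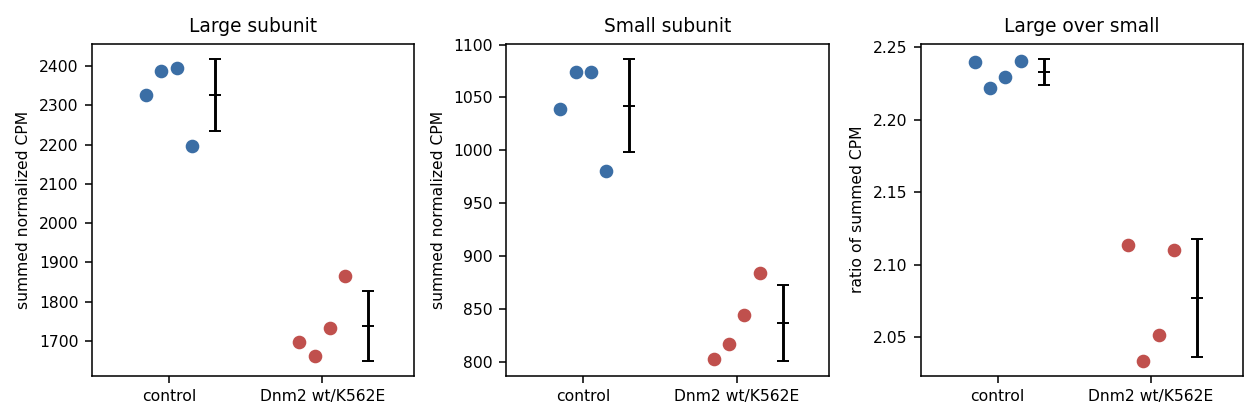
Summed normalised CPM of the large subunit genes (left) and small subunit genes (middle), and their ratio (right), for each mouse, with the mean and SD over 4 mice in black beside the points. The vertical axes do not start at 0. In each panel the 4 Dnm2 wt/K562E mice lie below the 4 controls, with a ratio of 2.03 to 2.11 against 2.22 to 2.24.

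Individual log2 fold changes varied within each subunit, with an SD of 0.22 over the large and 0.26 over the small subunit genes. Relative to the control mean of each gene, the median of the 77 genes was −0.37, −0.41, −0.37 and −0.27 (log2) in mutants 1 to 4, and between −0.08 and 0.05 in controls. In mutants, 66 to 75 of the 77 genes were below their control mean.

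In the large subunit the smallest p-values belonged to Mrpl45, Mrpl14, Mrpl42, Mrpl23, Mrpl35 and Mrpl37. Mrpl45 (ENSMUSG00000018882, chr11:97315716-97329920, plus strand, GRCm38) encodes a protein at the exit of the nascent chain tunnel that anchors the ribosome to the inner membrane. Its level was 60.7, 68.0, 63.8 and 65.5 CPM in controls and 36.2, 33.0, 38.5 and 39.9 CPM in Dnm2 wt/K562E mice. The lowest control was well above the highest mutant, and the log2 fold change was −0.81 (SE 0.07, adjusted p = 1.1e-05). Of its 31-base stretches, 13.4% were shared with other transcripts, chiefly processed pseudogenes that were not counted. Mrpl14 (ENSMUSG00000023939, chr17:45686322-45698495, plus strand) encodes a conserved protein on the face of the large subunit that meets the small one. It was at 57.8, 66.4, 59.2 and 52.7 CPM in controls and at 29, 31.2, 34.7 and 30.6 CPM in mutants. With a log2 fold change of −0.91 (SE 0.08, adjusted p = 1.3e-05), it had the lowest value of the 77 genes. Its exons overlap those of Tmem63b on the other strand over 106 bases, so that some reads may count for both.

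Mrpl42 (ENSMUSG00000062981, chr10:95480805-95501940, minus strand), a protein without a bacterial counterpart, was the most abundant of the 77 transcripts by CPM. It was measured at 255, 230, 254 and 226 CPM in controls and at 159, 152, 163 and 161 CPM in mutants, a log2 fold change of −0.60 (SE 0.06, adjusted p = 2.4e-05). The mutant mice were close to each other (SD 4.83 CPM) and far below the controls. Mrpl23, another protein of the tunnel exit, was at 30.9 ± 2.24 CPM in controls and 19.2 ± 0.46 CPM in mutants. Mrpl35, a conserved protein, was at 44.1 ± 1.37 and 30.4 ± 0.70 CPM, and Mrpl37, found in mitochondria only, at 75.4 ± 5.08 and 50.2 ± 1.68 CPM. The log2 fold changes of Mrpl23, Mrpl35 and Mrpl37 were −0.69, −0.54 and −0.59, each without overlap between genotypes and with adjusted p-values of 2.5e-05 to 4e-05.

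**Figure D3:**
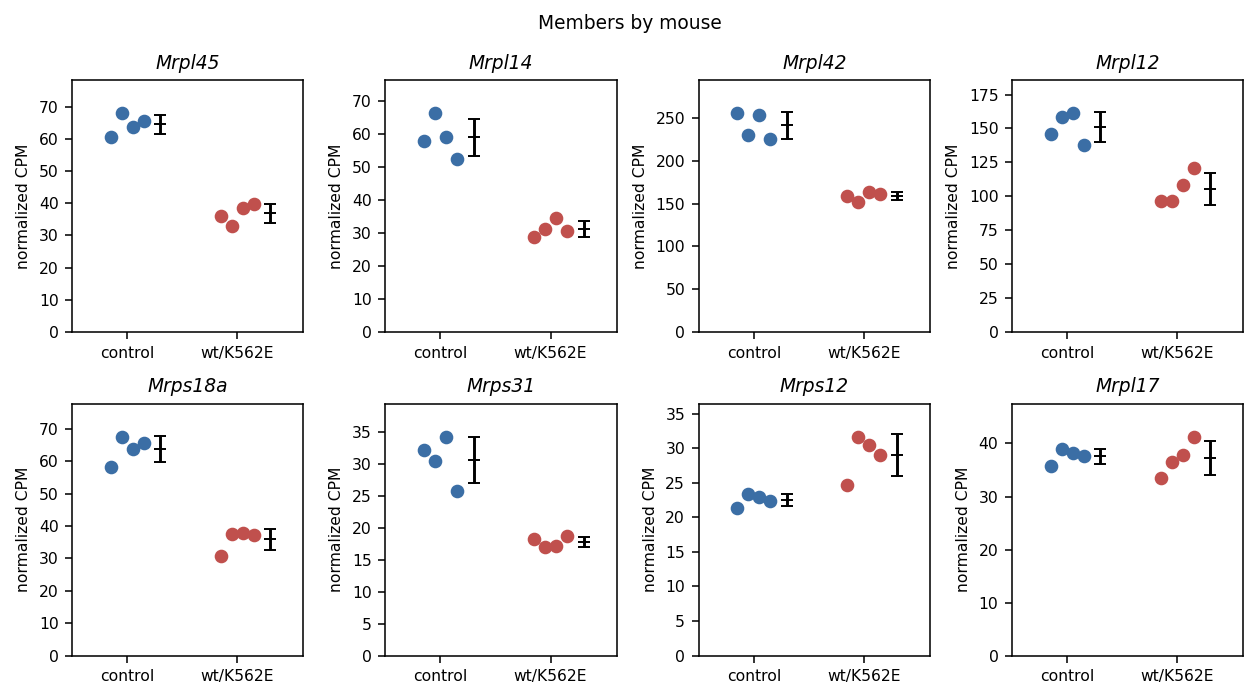
Normalised CPM of 8 mitoribosome genes in each control (blue) and Dnm2 wt/K562E (red) mouse, with the mean and SD over 4 mice in black. The genotypes are apart for Mrpl45, Mrpl14, Mrpl42, Mrpl12, Mrps18a and Mrps31 (mutants lower) and for Mrps12 (mutants higher), and overlap for Mrpl17.

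By part of the large subunit, the changes were uneven. The flexible stalk recruits elongation factors, and its genes Mrpl11 (−0.28, adjusted p = 0.0081) and Mrpl12 (−0.51, adjusted p = 6.7e-04) were lower, while Mrpl10, the base of the stalk, had a log2 fold change of −0.22 with an adjusted p of 0.052. Mrpl12, the second most abundant transcript, was at 146, 159, 161 and 138 CPM in controls and 96.8, 96.4, 109 and 121 CPM in mutants. Around the tunnel exit, Mrpl45 and Mrpl23 were lower, whereas Mrpl22 (−0.19, adjusted p = 0.087) and Mrpl24 (−0.07, adjusted p = 0.37) were not called. Shared 31-base stretches make counts less certain for Mrpl10 (17.3%), Mrpl22 (29.8%) and Mrpl24 (27.2%). The same holds for the lower genes Mrpl12 (15.9%), Mrpl23 (14.2%) and Mrpl45. All 3 genes of proteins that line the peptidyl transferase side were lower, namely Mrpl2 (−0.60), Mrpl3 (−0.53) and Mrpl16 (−0.38). Mrpl2 was at 48.4 to 57.7 CPM in controls and 30.4 to 36.9 CPM in mutants. Of 8 genes of the central protuberance, the protein-rich head of the subunit, 7 were lower, from −0.71 for Mrpl55 to −0.22 for Mrpl58, and Mrpl40 (−0.14, adjusted p = 0.17) was not. The call of Mrpl58, a peptidyl-tRNA hydrolase built into the ribosome, was marginal (adjusted p = 0.044) and was lost by the exact test of edgeR and on leaving out any of 6 single mice, with log2 fold changes between −0.23 and −0.17.

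Among symbols of the small subunit, Mrps18a (ENSMUSG00000023967, chr17:46110986-46128910, plus strand) had the smallest p-value. It is 1 of 3 paralogs of a bacterial small subunit protein, and its product sits in the large subunit. Mrps18a was at 58.3, 67.6, 63.9 and 65.5 CPM in controls and at 30.8, 37.5, 37.7 and 37.3 CPM in Dnm2 wt/K562E mice. Mutant mouse 1 stood below the other 3, and all 4 were well below the controls (log2 fold change −0.83, SE 0.08, adjusted p = 1.8e-05). The paralogs Mrps18b and Mrps18c, which encode small subunit proteins, were lower too, with log2 fold changes of −0.32 and −0.30. By library size alone neither was called (−0.11 and −0.08, adjusted p = 0.30 and 0.44 by the same edgeR test). More than 30% of the 31-base stretches of each of these 2 transcripts occur elsewhere in the transcriptome (31.6% and 34.5%), against 0.163% for Mrps18a.

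Mrps31 (ENSMUSG00000031533, chr8:22411361-22429665, plus strand), a protein of the small subunit without a bacterial counterpart, was at 32.1, 30.4, 34.2 and 25.8 CPM in controls. In mutants it was at 18.2, 17.0, 17.1 and 18.7 CPM, so that the groups were apart although control 4 was the lowest of its group (log2 fold change −0.79, SE 0.09, adjusted p = 5.6e-05). Mrps35, also specific to mitochondria, was at 23.1 ± 1.48 CPM in controls and 15 ± 1.51 CPM in mutants (−0.62), and Mrps9, a conserved protein, at 43.7 ± 3.50 and 31.4 ± 1.69 CPM (−0.47). Mrps17 had a log2 fold change of −0.36, from 41.1 ± 0.96 to 32.0 ± 1.56 CPM. The genotypes did not overlap for these genes. Mrps36 was at 43.1 ± 2.94 CPM in controls and 30.7 ± 1.92 CPM in mutants (−0.49, adjusted p = 3.0e-04), though 21% of its 31-base stretches are shared, mainly with pseudogenes. Mrps30, the other gene whose protein belongs to the large subunit despite its symbol, was lower (log2 fold change −0.28, adjusted p = 0.0086).

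Mrps12 (ENSMUSG00000045948, chr7:28739641-28741820, minus strand) was the exception among the 77 genes. Its protein is a conserved part of the decoding centre, where codon and anticodon are matched. In controls it was at 21.4, 23.4, 23.0 and 22.3 CPM, and in Dnm2 wt/K562E mice at 24.7, 31.7, 30.5 and 29.1 CPM. Each mutant was above each control, mutant 1 only by a narrow margin. The log2 fold change was 0.37 (SE 0.08, adjusted p = 0.0048), and by library size alone it was 0.58. None of its 31-base stretches was found in another transcript and no exon overlapped another counted gene. Among the other genes of the decoding and messenger path, Mrps5 (−0.44), Mrps7 (−0.32) and Mrps24 (−0.35) were lower, and Mrps2 (−0.11, adjusted p = 0.42) was not called.

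The 19 genes not called were Mrpl10, Mrpl17, Mrpl20, Mrpl22, Mrpl24, Mrpl40, Mrpl43, Mrpl49, Mrpl52, Mrpl53 and Mrpl57 in the large subunit, and Mrps2, Mrps6, Mrps10, Mrps15, Mrps16, Mrps23, Mrps25 and Mrps34 in the small subunit. Most of their log2 fold changes were below 0, with Mrpl10 the lowest at −0.22. Only Mrpl52 (0.05), Mrps10 (0.04) and Mrps6 (0.08) were above 0. Mrpl17 was the nearest to 0 (−0.01, SE 0.07), at 35.7, 38.9, 38.1 and 37.7 CPM in controls and 33.5, 36.6, 37.9 and 41.3 CPM in mutants. Mrps25 was special in that controls (21.4 to 22.2 CPM) and mutants (19.7 to 20.9 CPM) did not overlap while the difference was small (log2 fold change −0.10, adjusted p = 0.20). Its exons overlap those of Nr2c2 on the other strand over 4590 bases. Other genes in this group share much of their sequence as well, with 84.4% of the 31-base stretches of Mrpl53 and 73.8% of those of Mrps34 found in other transcripts.

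Shared sequence concerned 37 of the 77 genes, which had more than 10% of their 31-base stretches in another gene or overlapped exons of another counted gene. Of these 37 genes, 28 were lower, with a median log2 fold change of −0.33. Of the remaining 40 genes, 29 were lower and 1 was higher, with a median of −0.40. For the large subunit alone, leaving out the genes with shared sequence gave a median of −0.44 instead of −0.36.

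Genes listed with a bacterial counterpart were compared with the other genes as well. The others include Mrps18a and Mrps18b, although these are paralogs of a bacterial small subunit protein. Of 45 genes with a bacterial counterpart, 34 were lower and 1 was higher (median −0.37), and of 32 genes without one, 23 were lower (median −0.33). The order was not the same in both subunits, which were taken by symbol here. Mrps18a, Mrps30 and Mrps36 thus stand among the small subunit genes without a counterpart. With against without a counterpart, the medians were −0.41 (29 genes) and −0.31 (19 genes) in the large subunit, but −0.31 (16 genes) and −0.42 (13 genes) in the small subunit. A list of 12 genes whose human orthologs are mutated in mitochondrial disease had 7 lower genes and 5 not called. The lower share was 58.3%, beside 74.0% of the 77 genes and 21.7% of all tested genes. Among the lower genes were Mrpl3, Mrpl44 (−0.34), Mrps22 (−0.42), Mrps14 (−0.39) and Mrps28 (−0.43). None of the 12 had a log2 fold change of −0.58 or less.

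The transcripts of the mitoribosome genes, taken by symbol, were not equally abundant. Per kilobase of the principal transcript, the control level had a median of 25.5 CPM per kb and ran from 3.57 for Mrps25 to 362 for Mrpl42. After Mrpl42, the most abundant transcripts of the large subunit were Mrpl12 (115 CPM per kb) and Mrpl30 (102 CPM per kb). Mrps21 (114 CPM per kb), Mrps18a (72.2 CPM per kb) and Mrps36 (61.5 CPM per kb) led the small subunit symbols. At the low end were Mrpl19 (4.78 CPM per kb), Mrpl17 (5.15 CPM per kb) and Mrpl57 (6.55 CPM per kb) in the large subunit, and Mrps35 (5.55 CPM per kb) and Mrps26 (6.74 CPM per kb) after Mrps25 in the small subunit. The median level was 28.0 CPM per kb in the large and 23.2 CPM per kb in the small subunit. The order rests on the transcript length used, since per kilobase of all exons joined Mrpl42 was at 65.5 CPM per kb, below Mrpl12 (98.5 CPM per kb) and Mrps21 (75.1 CPM per kb). Mrps21, encoding a conserved small subunit protein, was 55.5 ± 3.99 CPM in controls and 46.9 ± 3.87 CPM in mutants (log2 fold change −0.25, adjusted p = 0.025), a call that was lost without control 3, mutant 1 or mutant 2 (−0.22 to −0.20). The calls of Mrpl19, Mrpl21, Mrpl32 and Mrpl54 were likewise lost on leaving out single mice, with log2 fold changes between −0.31 and −0.17.

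Of the other genes needed for mitochondrial translation, many were lower and none was higher. Mitoribosome proteins with other symbols were Dap3 (−0.38), Chchd1 (−0.42), Ptcd3 (−0.37) and Gadd45gip1 (−0.47), all lower, and Aurkaip1 (−0.13, adjusted p = 0.26), which was not called. Of 14 translation factors 10 were lower, and their median was −0.34. The lowest was Lrpprc (−0.73), which stabilises mitochondrial messages, at 119 ± 5.83 CPM in controls and 71.5 ± 3.56 CPM in mutants. Initiation factor Mtif2 (−0.49), elongation factors Tufm (−0.37) and Gfm1 (−0.32), the ribosome recycling factor Gfm2 (−0.45), the COX1 translation activator Taco1 (−0.41) and the membrane insertase Oxa1l (−0.48) were lower, while Mtif3 (0.10), the formyltransferase Mtfmt (0.10), Mrrf (−0.22) and Mtrf1l (−0.30) were not called. Of 26 factors that process ribosomal RNA or assemble the mitoribosome, 16 were lower and none was higher, with a median of −0.33. The lowest were Mettl17 (−0.86) and the rRNA methyltransferase Mrm3 (−0.78). Malsu1 (−0.59), known to bind the product of Mrpl14, and the small subunit rRNA chaperone Eral1 (−0.65) were lower as well. By library size alone, a scaling that was added for these lists after the data were seen, 5 of the 14 translation factors were lower and Mtif3 was higher (0.32, adjusted p = 0.029 by the same edgeR test), with a median of −0.13. Of the 26 assembly factors 7 were then lower, with a median of −0.12, and of the mitoribosome proteins with other symbols only Dap3 and Gadd45gip1 remained called, Chchd1 and Ptcd3 having adjusted p-values of 0.061 and 0.062.

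Most RNAs made in mitochondria were lower as well. The rRNA of the small subunit, mt-Rnr1, was at 1518 ± 470 CPM in controls and 541 ± 91.4 CPM in mutants, and mt-Rnr2 of the large subunit at 3481 ± 803 and 1645 ± 358 CPM, with log2 fold changes of −1.49 and −1.08. Control 1 was far below the other controls in both (844 CPM of mt-Rnr1, 2404 CPM of mt-Rnr2). The methods of the study describe poly A enrichment, which leaves only part of the rRNA, while the labels give a kit for total RNA, so that levels of these rRNAs are uncertain. Of the 13 mitochondrial messages 10 were lower (median −0.49), and mt-Cytb (−0.24), mt-Nd5 (−0.23) and mt-Nd6 (−0.14) were not called. The messages differed widely in level, with mt-Co1 (−0.33) at 113176 CPM in controls. The largest decreases, of mt-Nd3 (−0.99), mt-Co3 (−0.82) and mt-Atp6 (−0.64), were at only 43.7, 241 and 292 CPM in controls. Yet mt-Nd6 was at 117 CPM, and mt-Nd1 (−0.46) and mt-Nd2 (−0.49) were lower at 27652 and 22989 CPM. Whether reads of the low messages were lost to near copies was not tested. By library size alone 5 of the 13 were lower (median −0.28). For 7 genes of mitochondrial DNA maintenance and transcription, 4 were lower with a median of −0.16, and by library size alone none was called and the median was 0.05. Among 78 genes of the cytosolic ribosome, chosen by symbol, 8 were lower and 7 were higher with a median of 0.02, so that these genes were close to the median of all genes.

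**Figure D4:**
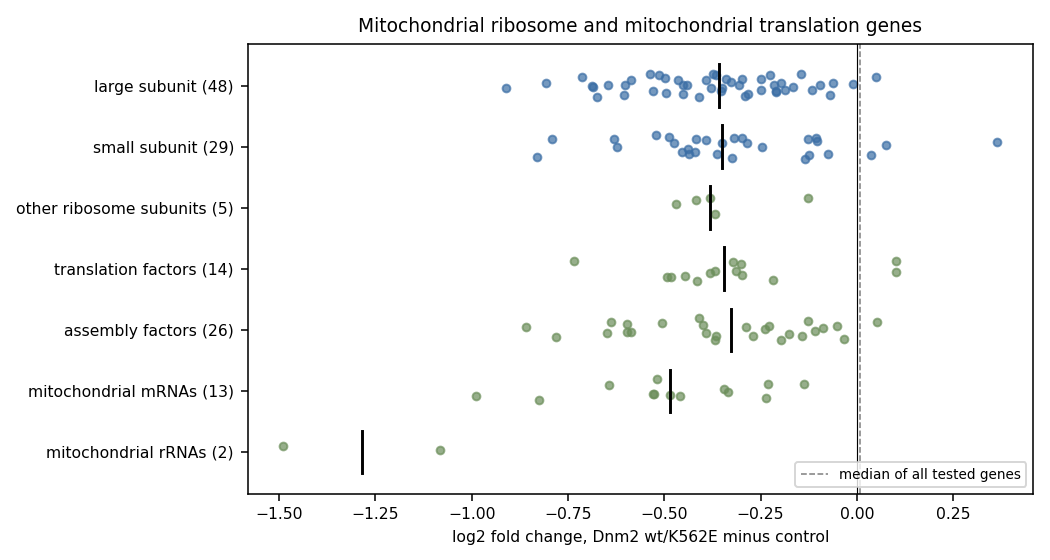
Log2 fold changes of Dnm2 wt/K562E over control for the mitoribosome genes of either subunit (blue) and for other genes of mitochondrial translation (green), with a black bar at each median and the number of genes in brackets. The medians of both subunits, of translation factors and of assembly factors lie between −0.36 and −0.33, left of the grey dashed line at the median of all tested genes, 0.01.

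Markers of several cell types differed between the genotypes as well. Of 8 markers of slow and oxidative fibres 7 were lower in Dnm2 wt/K562E mice (median −0.58), with summed levels of 35187 to 38919 CPM in controls and 22036 to 24640 CPM in mutants. This list holds Myh2, the myosin of fast oxidative fibres, and Ckm, the muscle creatine kinase of all fibres. Without Myh2 and Ckm, left out after the data were seen, 5 of 6 markers were lower (median −0.53), with sums of 16426 to 19315 CPM in controls and 10732 to 13346 CPM in mutants. Of 6 fast fibre markers 5 were lower (17716 to 20677 against 11309 to 13779 CPM). Their log2 fold changes were uneven, from −4.63 for Myh4 and −3.34 for Pvalb to −0.13 for Myh1, which was not called. Control 4 was at 3133 CPM of Myh4, against 163 to 426 CPM in the other controls. This mouse also had the highest Actn3 and Pvalb levels and the lowest mitoribosome sums of the controls. All 7 macrophage markers were higher, with sums of 72.8 to 135 CPM in controls and 179 to 296 CPM in mutants, and so were all 6 fibroblast markers, with 2504 to 3792 against 5927 to 7810 CPM. The 4 endothelial markers were lower (838 to 883 against 600 to 683 CPM), and none of 4 Schwann cell or 4 adipocyte markers was called. None of these markers was at 0 in any mouse. Among all tested genes, 21.7% were lower and 22.2% were higher. By library size alone 3 of the 4 endothelial markers were lower, Pecam1 being at −0.05 (adjusted p = 0.54 by the same edgeR test). The other marker lists kept their counts of lower and higher genes with that scaling. The part of the cell mix in the lower mitoribosome transcripts was not tested.

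Many mitoribosome genes start back to back with another gene. A tested protein-coding gene on the opposite strand began within 1000 bases of the start of 29 of the 77 genes, and 27 of these neighbours were not mitoribosome genes. Of the 27 neighbours 6 were lower and 4 were higher, beside 21.7% and 22.2% of all tested genes. The median log2 fold change of the neighbours was −0.01, while the mitoribosome genes beside them had 21 lower members and a median of −0.32. In 16 pairs the mitoribosome gene was lower and its neighbour was not. The same was seen for the 17 pairs without overlap of the 5′ ends, in which 12 mitoribosome genes (median −0.30) and 3 neighbours (median −0.01) were lower. Some neighbours were near the floor, such as Ska3 (0.24 CPM in controls, SE 0.45) and Mtbp (1.74 CPM, SE 0.30), so that a change in them could be missed. Ndufs6 (−0.54) next to Mrpl36 and Ndufb5 (−0.48) next to Mrpl47, both genes of respiratory complex I, were lower, while Ppp1r10 (0.62) next to Mrps18b and Eme2 (0.47) next to Mrps34 were higher.

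**Figure D5:**
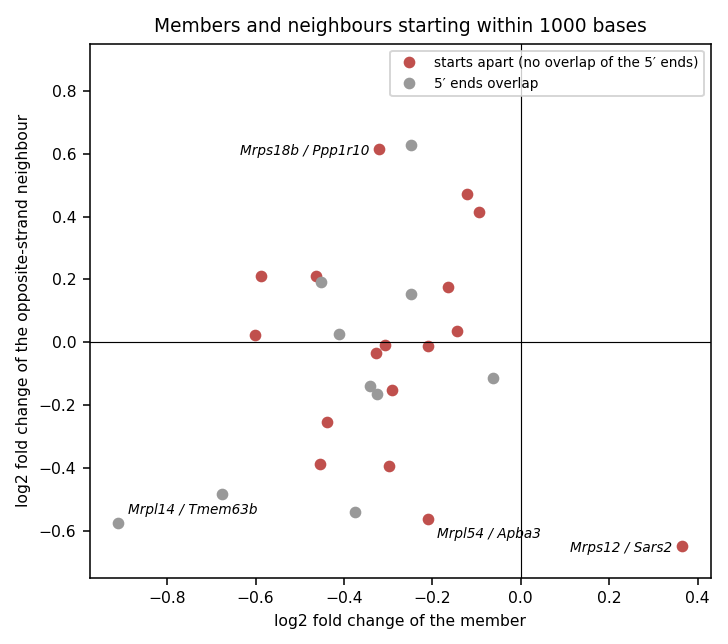
Log2 fold change of each mitoribosome gene (horizontal) and of the tested protein-coding gene that starts within 1000 bases on the opposite strand (vertical), for the 27 pairs whose neighbour is no mitoribosome gene. Red points are the 17 pairs whose 5′ ends do not overlap. All points but that of Mrps12 lie left of 0, while the neighbours scatter around a median of −0.01, and the pair of Mrps12 (0.37) and Sars2 (−0.65) lies alone at the lower right.

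The pair of Mrps12 and Sars2 had opposite signs. Sars2, the mitochondrial seryl-tRNA synthetase, starts 172 bases from Mrps12 on the other strand. It was at 13.7, 13.0, 13.0 and 12.0 CPM in controls and at 7.41, 7.62, 9.42 and 8.48 CPM in Dnm2 wt/K562E mice, a log2 fold change of −0.65 (SE 0.10, adjusted p = 3.9e-04). Every mutant was thus lower for Sars2 and higher for Mrps12 than any control.

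The DNA upstream of the genes was searched for 3 motifs of factors known to act on genes of mitochondrial function, in windows from 250 bases before to 50 bases after the start, which were found for 68 of the 77 genes (RefSeq, GRCm38.p6). The motifs were the palindromic GC-rich NRF1 consensus with 1 free position, CCGGAAG for the ETS family (GABP among them) and AAGATGGC for YY1, each searched on both strands. Matches of 2 motifs that overlap were both counted. The NRF1 letters were present for 13 of the 68 genes (19.1%), beside 10.7% of the tested genes and 5.19% of all genes with a window. The ETS letters were found for 25 genes (36.8%, beside 18.7% and 9.93%), and the YY1 letters for 12 genes (17.6%, beside 4.86% and 3.19%). Of 58 cytosolic ribosome genes with a window, 8.62% held the NRF1, 41.4% the ETS and 8.62% the YY1 letters, so that the ETS share of the mitoribosome genes was below that of the cytosolic ribosome. By subunit, ETS matches stood before 33.3% of large and 42.3% of small subunit genes, NRF1 matches before 23.8% and 11.5%, and YY1 matches before 14.3% and 23.1%. The medians of genes with and without a match were close. The median log2 fold change was −0.39 with and −0.35 without the NRF1 letters, −0.30 and −0.37 for ETS, and −0.41 and −0.35 for YY1. Matching letters are a description of the sequence and do not show that a factor binds there.

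The upstream sequences of 3 genes are shown, since Mrpl45 and Mrps18a had the smallest p-values of the large and small subunit symbols and Mrps12 was the gene that was higher. Each runs 5′ to 3′ on the strand of its gene, without annotated exons, and motif letters are in capitals. Mrpl45 (chr11:97315466-97315715, plus strand) holds the NRF1 letters at 2 places, 120 to 111 and 38 to 29 bases before the start. Mrps18a (chr17:46110754-46110985, plus strand) holds the ETS letters 26 to 20 bases before the start. Its whole window, which reaches beyond the stretch shown, has a YY1 match as well. For Mrps12 (chr7:28741822-28741991, minus strand) the 170 bases between its start and the exons of Sars2 hold no match to any of the 3 motifs, while its whole window, which reaches into exons, has ETS and YY1 matches.
Mrpl45: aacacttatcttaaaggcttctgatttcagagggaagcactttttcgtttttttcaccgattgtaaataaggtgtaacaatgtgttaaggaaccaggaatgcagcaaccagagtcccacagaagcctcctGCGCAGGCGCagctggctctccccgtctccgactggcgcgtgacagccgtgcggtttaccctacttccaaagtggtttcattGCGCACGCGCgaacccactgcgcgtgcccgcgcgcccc
Mrps18a: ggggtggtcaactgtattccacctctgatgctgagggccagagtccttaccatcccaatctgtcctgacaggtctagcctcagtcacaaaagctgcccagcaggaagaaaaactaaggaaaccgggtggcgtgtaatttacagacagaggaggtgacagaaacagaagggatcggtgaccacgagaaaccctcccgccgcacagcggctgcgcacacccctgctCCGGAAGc
Mrps12: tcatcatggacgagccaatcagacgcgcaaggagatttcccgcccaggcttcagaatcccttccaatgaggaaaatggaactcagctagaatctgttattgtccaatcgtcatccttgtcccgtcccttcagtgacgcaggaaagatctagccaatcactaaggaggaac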

How the data were processed

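RNA-seq counts per gene from the soleus of 4 control and 4 Dnm2 wt/K562E mice were used, grouped by genotype as in the labels. The authors trimmed reads with Trimmomatic 0.33, aligned them with STAR 2.5.1b to GRCm38.p5 with Ensembl gene models and counted them with featureCounts, and the deposited counts are raw. Alignments of low mapping quality were dropped, multi-mapping reads counted at their primary alignment and reads over several genes counted for each, so that genes with near copies can lose reads and overlapping genes share them. Whether strand was used is not given in the sources used here, and library type is open (poly A enrichment in the methods, a total RNA kit in the labels). The description of 1 mutant library spells the mutation differently from its title, which was used for its group.

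Of 22880 gene IDs, 22647 matched GENCODE M21 (same build), which gave symbols and positions. With edgeR 4.0.16 in R 4.3.3, filterByExpr (minimum count 10, minimum total 15) kept 14001 genes, followed by TMM factors, the quasi-likelihood F-test and Benjamini-Hochberg adjustment. The SE is that implied by F. Depth was 33407430 to 48832814 reads per mouse, and mice of 1 genotype differed beyond sampling noise (a chi-square test over genes gave at least 13.0 for each degree of freedom), so each counted as a replicate. The mitoribosome genes and all lists were chosen with earlier results of these data known. Named were, for each subunit, the 6 genes of smallest p-value, every gene called higher or not called, its 3 highest and 3 lowest levels per kilobase, genes of role lists and, after their values were seen, members of neighbouring pairs and genes whose calls depended on a setting. Alternatives were median-ratio and upper-quartile factors, library size alone, the edgeR exact test, DESeq2 1.42.0, other filters on low counts, no mitochondrially encoded genes, replicate blocks, a length and GC correction (mgcv 1.9.3) and leaving out each mouse.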

Additional observations from a re-analysis of the deposited data

Results flagged for a closer look

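For each of the 77 genes and for the 3 summed measures, the 4 values of a genotype were searched for 1 mouse far from the other 3, by the gap to the nearest value over the whole range and Dixon's critical value for 4 values. Of 160 groups of 4 values, 3 passed, while chance alone gives about 5% of groups. Mrpl35 was at 46.2 CPM in control 4 and at 43.3 to 43.5 CPM in the other controls. Mrpl44, a ribonuclease III-like protein of the large subunit, was at 18.0 CPM in Dnm2 wt/K562E mouse 3 and at 21.3 to 21.6 CPM in the other mutants. Mrps18a was at 30.8 CPM in Dnm2 wt/K562E mouse 1 and at 37.3 to 37.7 CPM in the other mutants. All 3 genes were called lower, and each of these mice lay on the side of the range that made the difference between genotypes larger.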

How the results depend on the processing

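Over 19 alternatives, 36 genes kept their call (Mrps12 and 35 lower genes). By library size alone, 35 of the 77 genes were lower (57 with TMM factors), 5 higher (1), and 3 lower past both thresholds (14), with medians of −0.15 and −0.14 for the large and small subunit while the median of all genes was 0.22. Under that scaling the sign turned for Mrps2 (0.10), Mrpl24 (0.14), Mrps15 (0.14), Mrpl20 (0.094), Mrpl53 (0.012), Mrps25 (0.11), Mrpl17 (0.20), Mrpl54 (0.0010), Mrps16 (0.085), Mrpl57 (0.11), Mrpl22 (0.023), Mrps23 (0.076), Mrpl32 (0.0014), Mrpl40 (0.068), Mrps34 (0.088), Mrpl49 (0.045) and Mrpl43 (0.15), by the common shift of all genes. Lower calls of Mrpl11, Mrpl16, Mrpl44, Mrps7, Mrps18b, Mrps18c, Mrps24 and Mrps30, among others, were not kept by library size alone. Their adjusted p-values were then 0.063 to 0.46 by the same edgeR test. Leaving out genes with shared sequence or exons moved the large subunit median to −0.44 (the cause was not tested). The other scalings, tests and filters gave 55 to 58 lower and 1 higher gene, and Mrpl17 turned to 0.022 with upper-quartile factors. The length and GC correction gave 54 lower genes.

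Leaving out 1 mouse at a time gave 51 to 59 lower genes, 1 to 1 higher, 12 to 16 past both thresholds, medians of −0.40 to −0.33 (large) and −0.38 to −0.34 (small) and their difference −0.03 to 0.03. Mrpl17 ran from −0.062 (without mutant 4) to 0.037 (without mutant 1), turning its sign also without control 2 (0.0023), and Mrpl52 from −0.055 (without mutant 4) to 0.107. Calls of Mrpl19, Mrpl21, Mrpl32, Mrpl54, Mrpl58 and Mrps21 were lost without single mice (−0.31 to −0.17). Mrpl10 (−0.30) and Mrpl22 (−0.25) became called without mutant 4 and Mrpl53 (−0.27) without control 1. Alternatives added after the data were seen kept the change in the large to small ratio (0.930 of control) at 0.943 without Mrpl42 and at 0.925 to 0.937 without single mice.

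Mouse numbers did not pair the mice. Same-numbered mice deviated from their group means with a mean correlation of −0.11 (title numbers) or −0.03 (description numbers), and 0 or 2 of 8 mice correlated best with their own number. With these numbers as a replicate block, 52 or 54 genes were lower, 1 was higher and 14 were past both thresholds, with medians of −0.36 and −0.35 in either. Depth limited little, the genes lying at 16.3 CPM or more in controls. With 4 mice per genotype, changes near the SE of single genes are left uncalled. Some changes well above it were not called either, as for Mrpl10 (−0.22, SE 0.09) and Mrpl49 (−0.17, SE 0.08).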
